A study of Arabis alpina with 18 samples.

Results

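The genotype effect in young shoot apices of Arabis alpina, a perennial relative of Arabidopsis, was measured by comparing mRNA in dissected apices of 3-week-old eop055 plants with that in pep1-1 plants of the same age. This comparison rests on 6 libraries, 3 of each genotype, out of 18 libraries in the series. The other 12 libraries are apices and leaves of both genotypes at 5 weeks. All plants had the Pajares background and were grown in long days, and both genotypes are mutants, so no wild type enters the comparison. The labels name pep1-1 and eop055 without giving the lesion of eop055 or saying whether eop055 also carries the pep1-1 allele. They also give no hour of harvest and do not say whether replicates were separate plants or pools, so the tests compare these libraries, whose spread may be in part technical. The series is titled as a study of how TOE2, a repressor of flowering of the AP2 family, regulates flowering.

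The shoot apex holds the stem cells of the shoot apical meristem and the leaf primordia around it, and it is where the switch from leaf to flower production takes place. PEP1 is the A. alpina counterpart of the floral repressor FLC, and pep1-1 plants flower without the winter cold that this perennial otherwise needs. Flowering time is also set by age, through SPL transcription factors, and by day length, which is read by the circadian clock, a loop of morning-phased and evening-phased transcription factors.

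Each 3-week library held between 11007320 and 14132723 reads assigned to genes, against 7987096 to 14132723 over the series. Reads outside annotated genes made up 10.6% to 11.8% of the total. In a principal component analysis of the 6 libraries, the first component held 40.3% of the variance and separated the genotypes without overlap, while the second (21.0%) spread the 3 eop055 libraries from -31.1 for replicate 1 to 19.6 for replicate 2. As a check of the tissue label, the 100 genes most enriched in 5-week pep1-1 apices over leaves summed to between 18310 and 20361 CPM (reads per 1000000 gene reads, library sizes scaled by TMM) in the 3-week apices and to between 343 and 364 CPM in pep1-1 leaves. The defining meristem genes, photosynthesis genes and cell cycle genes that were listed as markers have no Arabidopsis name in the files and were not used.

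At 3 weeks 783 of 21275 genes tested (3.68%) differed between the genotypes at an adjusted p under 0.05 in edgeR's quasi-likelihood test, 548 with more (2.58%) and 235 with less (1.10%) mRNA in eop055. Most differences were small: the median log2 fold change was 0.64 among the genes called higher and -0.57 among those called lower, and 190 genes (0.893%) passed with at least a 2-fold difference, 149 higher and 41 lower. The libraries of the 2 genotypes did not overlap for 774 of the 783 genes, against 26.0% of all genes tested. A fit of the 6 libraries alone called 1712 genes with a more even split of 997 higher and 715 lower, but 13 of the 45 genes named by rule lost their call in it, each of which is named with its adjusted p where it is described. Leaving out single libraries brought the count down to 359 without pep1-1 replicate 2, 375 without eop055 replicate 2 and 378 without pep1-1 replicate 3.

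**Figure D1:**
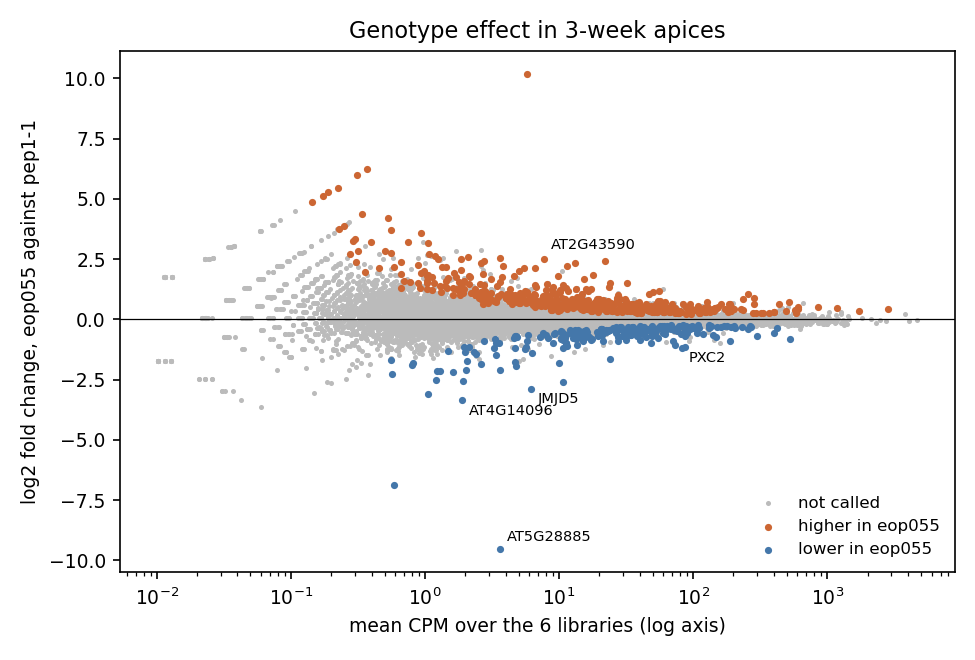
Genotype effect of each gene tested in 3-week apices. The x axis gives the mean level over the 6 libraries in CPM (log axis) and the y axis the fitted log2 fold change of eop055 against pep1-1, so that the 548 orange points are higher and the 235 blue points lower in eop055; fitted values beyond about 5 belong to genes with 0 counts in one genotype and are not bounds.

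Arabidopsis names were taken from the authors' deposited tables of changed genes, so a gene has a name only if it changed in one of those tables. Of the 783 genes, 145 have a name, 106 with a higher and 39 with a lower level, which is 10.5% of the 1381 named genes tested. Among the 132 named genes tested that the authors' deposited 3-week tables list, 92 (69.7%) were called, 68 higher (51.5%) and 24 lower (18.2%). These tables were made from the same libraries, so that share is not independent. Among the 1249 genes named only through the 5-week tables, 53 (4.24%) were called, 38 higher (3.04%) and 15 lower (1.20%), close to the 3.68% of all genes. Counts of members below are therefore descriptions of the genes that have names.

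Leaf-enriched transcripts were more abundant in the eop055 apices. The 100 genes most enriched in 5-week pep1-1 leaves over apices summed to 404, 367 and 408 CPM in the pep1-1 apices and to 655, 669 and 605 CPM in the eop055 apices. The groups did not overlap, with means of 393 ± 22.6 and 643 ± 33.4 CPM (SD, n = 3) and a ratio of 1.64. An exact two-sided permutation test gave p = 0.1, the smallest that 3 against 3 libraries can give. For scale, the same set summed to between 41442 and 44229 CPM in pep1-1 leaves. It was also higher in eop055 leaves, at between 51996.7 and 55536.5 CPM. In 5-week apices it summed to between 156 and 177 CPM in pep1-1 and between 193 and 257 CPM in eop055. Of the 100 genes 26 were called higher at 3 weeks and 0 lower by edgeR (38 and 0 by DESeq2, 53 and 1 at an unadjusted p under 0.05), with a median log2 fold change of 0.71 against 0.00 over all genes. The apex-enriched set had 8 members higher and 9 lower, with a median of -0.08.

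The same lean ran through the 783 genes. Of the 548 genes higher in eop055, 350 (63.9%) were at least 2-fold higher in pep1-1 leaves than in pep1-1 apices at 5 weeks, against 23.2% of all genes tested. Of the 235 genes lower in eop055, 115 (48.9%) were at least 2-fold higher in apices, against 25.9% of all genes. Fewer cells of a type and less RNA per cell cannot be told apart in such bulk libraries, and the part of leaf-enriched tissue or transcripts in the results below was not tested. For the called clock, glucosinolate and chitinase genes the leaf to apex difference in 5-week pep1-1 is given as a log2 value. It is not given for the other genes below.

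Circadian clock and photoperiod genes moved in 2 directions. Of 10 with a name, 4 morning-phased or light-regulated genes were higher and 5 genes, most of them evening-phased in Arabidopsis, were lower in eop055, and 9 of the 10 were named through the 3-week tables. Of all named genes tested 10.5% were called, and of those that the 3-week tables list 69.7%, so the count is not a test of an excess. LHY (Aa_G211810h1), a MYB transcription factor of the morning loop, was at 11.6, 8.22 and 8.33 CPM in pep1-1 and 26.8, 21.8 and 17.9 CPM in eop055. All 3 eop055 libraries lay above all pep1-1 libraries (log2 fold change 1.25 ± 0.14 SE, edgeR adjusted p = 5.43e-05). Its partner CCA1 (Aa_G177850h1) was at 1.31, 1.38 and 0.802 CPM in pep1-1 and 3.54, 2.67 and 1.96 CPM in eop055, again without overlap (log2 fold change 1.25 ± 0.24 SE, edgeR adjusted p = 0.00365).

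COL1 (Aa_G356670h1), a CONSTANS-like B-box protein, was at 1.69, 1.17 and 1.6 CPM in pep1-1 and 4.43, 3.7 and 3.99 CPM in eop055. Its highest pep1-1 library was below its lowest eop055 library (log2 fold change 1.44 ± 0.22 SE, edgeR adjusted p = 0.000306). BBX25 (Aa_G167490h1), another B-box protein of light signalling, was at 9.68, 8.7 and 5.3 CPM in pep1-1 and 22.3, 20.8 and 13.1 CPM in eop055 (log2 fold change 1.27 ± 0.22 SE, edgeR adjusted p = 0.00468), and its call was lost in the fit of the 6 libraries alone (edgeR adjusted p = 0.0801).

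JMJD5 (Aa_G133240h1), a jumonji-domain protein that peaks in the evening in Arabidopsis, showed the largest fall of the group. Its level was 11.1, 8.84 and 12.5 CPM in pep1-1 and 1.16, 1.44 and 1.8 CPM in eop055, and the 3 eop055 libraries lay close together far below pep1-1 (log2 fold change -2.89 ± 0.48 SE, edgeR adjusted p = 0.00318). FKF1 (Aa_G28730h1), a blue-light receptor of the F-box type that promotes CONSTANS expression in long days, was at 5, 6.22 and 6.29 CPM in pep1-1 and 1.16, 0.548 and 2.42 CPM in eop055 (log2 fold change -2.11 ± 0.42 SE, edgeR adjusted p = 0.00588). Its fold depended on single eop055 libraries. The log2 fold change was -2.76 without replicate 3, the highest of the 3, and -1.72 without replicate 2, the lowest.

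LUX (Aa_G656930h1), the DNA-binding member of the evening complex, was at 18, 18.2 and 19.5 CPM in pep1-1 and 7.15, 6.79 and 12.7 CPM in eop055 (log2 fold change -1.07 ± 0.21 SE, edgeR adjusted p = 0.0043). BOA (Aa_G28220h1), its close relative, was at 2.77, 3.04 and 6.54 CPM in pep1-1 and 0.817, 1.03 and 1.64 CPM in eop055 (log2 fold change -1.85 ± 0.46 SE, edgeR adjusted p = 0.0274). PRR5 (Aa_G45380h1), a pseudo-response regulator that represses CCA1 and LHY, was at 34.8, 37 and 45 CPM in pep1-1 and 20.5, 22.3 and 30.8 CPM in eop055 (log2 fold change -0.67 ± 0.15 SE, edgeR adjusted p = 0.0138). The BOA and PRR5 calls were lost without pep1-1 replicate 3 (edgeR adjusted p = 0.172 and 0.0877), without eop055 replicate 1 (0.126 and 0.0679) and without eop055 replicate 2 (0.135 and 0.0918). Both were also lost in the fit of the 12 apex libraries (0.0527 and 0.0722), and PRR5 in that of the 6 libraries alone (0.0957). ELF4 (Aa_G224250h1), the remaining member and another evening complex protein, was at 2.77, 2.97 and 3.45 CPM in pep1-1 and 0.749, 1.3 and 2.11 CPM in eop055 and was not called (log2 fold change -1.16 ± 0.41 SE, edgeR adjusted p = 0.136).

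**Figure D2:**
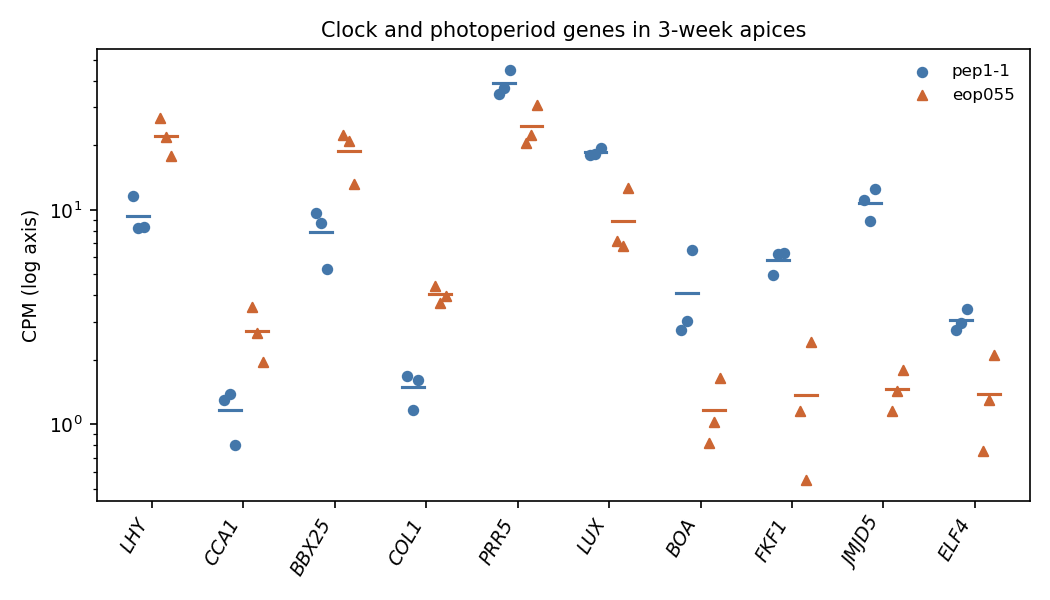
Clock and photoperiod genes in 3-week apices. Points are the CPM of single libraries (log axis), circles for pep1-1 and triangles for eop055, with bars at the mean of 3; LHY, CCA1, BBX25 and COL1 lie higher in eop055, and the other 6 lie lower, of which ELF4 was not called.

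Related genes outside the clock list moved too, of which COR28 and BBX29 were chosen after their values were seen. AT1G07050 (Aa_G663690h1), a CCT-motif protein, was at 6.76, 5.94 and 10.1 CPM in pep1-1 and 1.63, 1.92 and 2.42 CPM in eop055 (log2 fold change -1.94 ± 0.30 SE, edgeR adjusted p = 0.000465). COR28 (Aa_G616700h1), a cold-regulated protein tied to the clock in Arabidopsis, was lower (log2 fold change -1.45, edgeR adjusted p = 0.00867, and 0.0692 without pep1-1 replicate 3 and 0.0577 without eop055 replicate 2). BBX29 was higher (log2 fold change 1.46, edgeR adjusted p = 0.00236). In the 5-week pep1-1 libraries the 4 clock genes called higher were more abundant in leaves than in apices, by log2 differences of 2.31 to 4.29, and 4 of the 5 called lower were less abundant in leaves, by -1.78 to -3.23. The leaf to apex difference of BOA was -0.55 and did not pass (edgeR adjusted p = 0.337).

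Glucosinolates are sulfur-rich defence compounds of the mustard family, made from methionine in the aliphatic branch and from tryptophan in the indole branch. In the eop055 apices the genes of the aliphatic branch that passed the test were higher, and those of the indole branch that passed were lower. In the aliphatic branch 4 of 11 named genes were higher and 0 lower (6 and 0 both by DESeq2 and at an unadjusted p under 0.05), with a median log2 fold change of 0.81, and 5 of the 11 were named through the 3-week tables. In the indole branch 4 of 5 were lower and 0 higher by edgeR, by DESeq2 and at an unadjusted p under 0.05, with a median of -1.13, and 4 of the 5 were named through the 3-week tables. The median over all genes tested was 0.00. Of all named genes tested 7.68% were higher and 2.82% lower, and of those that the 3-week tables list 51.5% and 18.2%. Among the called genes of both branches 0 were named only through the 5-week tables, so the counts are not tests of an excess.

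IMD1 (Aa_G72800h1), an isopropylmalate dehydrogenase that works in methionine chain elongation, was at 21.2, 14.3 and 15.1 CPM in pep1-1 and 47.3, 55.3 and 40.4 CPM in eop055. The eop055 libraries all lay above the pep1-1 libraries (log2 fold change 1.51 ± 0.20 SE, edgeR adjusted p = 0.000982). CYP83A1 (Aa_G79730h1), the P450 that converts aliphatic aldoximes, was at 15.9, 10.8 and 10.4 CPM in pep1-1 and 34.9, 43.7 and 27.2 CPM in eop055 (log2 fold change 1.52 ± 0.34 SE, edgeR adjusted p = 0.0282). That call was lost without pep1-1 replicate 2 (edgeR adjusted p = 0.131), pep1-1 replicate 3 (0.131), eop055 replicate 1 (0.072) or eop055 replicate 2 (0.129), and in the fit of the 12 apex libraries (0.0717).

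CYP79F1 (Aa_G65470h1), which makes those aldoximes from chain-elongated methionine, was at 1.08, 1.31 and 1.05 CPM in pep1-1 and 3.61, 3.36 and 2.42 CPM in eop055 (log2 fold change 1.46 ± 0.24 SE, edgeR adjusted p = 0.000885). AOP3 (Aa_G189140h1), an oxoglutarate-dependent dioxygenase of side-chain modification, was at 38.9, 26.4 and 28.6 CPM in pep1-1 and 66.9, 76.4 and 61.8 CPM in eop055 (log2 fold change 1.13 ± 0.16 SE, edgeR adjusted p = 0.000982). Among the other enzymes of the branch, FMO-GSOX1 (0.81), UGT74C1 (0.19), SOT18 (-0.22) and IPMI-SSU3 (-0.55) are given by their log2 fold changes and were not called. The 2 named regulators of the branch were not called, MYB28 with log2 fold change 0.35, edgeR adjusted p = 0.482 and MYB29 with log2 fold change 0.08, edgeR adjusted p = 0.943. IPMI-SSU2, a subunit of the isomerase that acts before IMD1, was at 4, 2.69 and 4.38 CPM in pep1-1 and 8.37, 10.4 and 7.59 CPM in eop055 and fell just short of the threshold (log2 fold change 1.25 ± 0.32 SE, edgeR adjusted p = 0.0522).

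CYP79B2 (Aa_G486300h1) and CYP79B3 (Aa_G407280h1) turn tryptophan into indole-3-acetaldoxime, the entry step of the indole branch. CYP79B3 was at 1.31, 2.49 and 1.91 CPM in pep1-1 and 0.0681, 0.274 and 0.313 CPM in eop055, the lowest pep1-1 library lying above the highest eop055 library (log2 fold change -3.10 ± 0.46 SE, edgeR adjusted p = 0.000306). CYP79B2 was at 11.2, 15.4 and 19.5 CPM in pep1-1 and 1.77, 6.79 and 4.85 CPM in eop055, likewise without overlap (log2 fold change -1.79 ± 0.36 SE, edgeR adjusted p = 0.0138), and its adjusted p was 0.0513 without pep1-1 replicate 2 and 0.069 without pep1-1 replicate 3. The fit of the 6 libraries alone did not call it (edgeR adjusted p = 0.125).

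CYP83B1 (Aa_G127450h1), which takes indole-3-acetaldoxime onward to glucosinolates, was at 77.8, 99.2 and 123 CPM in pep1-1 and 42.3, 54.5 and 46.5 CPM in eop055 (log2 fold change -1.07 ± 0.18 SE, edgeR adjusted p = 0.0045), and its call was lost in the fit of the 6 libraries alone (0.0642). SOT16 (Aa_G98840h1), a sulfotransferase of the last core step, was at 7.07, 7.46 and 8.94 CPM in pep1-1 and 3.61, 3.77 and 3.36 CPM in eop055 (log2 fold change -1.13 ± 0.29 SE, edgeR adjusted p = 0.0399). The SOT16 call was lost when any of the 6 libraries was left out, with adjusted p between 0.0716 and 0.168, and without the filter on low counts (0.0565). MYB51, the indole branch regulator, was not called (log2 fold change 0.46, edgeR adjusted p = 0.855). The 4 indole genes called lower were higher in 5-week pep1-1 leaves than in apices by log2 differences of 1.66 to 7.27. The 4 aliphatic genes were also higher in leaves, by 1.59 to 8.30. By edgeR 0 of 5 named sulfur assimilation genes were called (0 by DESeq2, 1 at an unadjusted p under 0.05), with a median log2 fold change of 0.52.

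**Figure D3:**
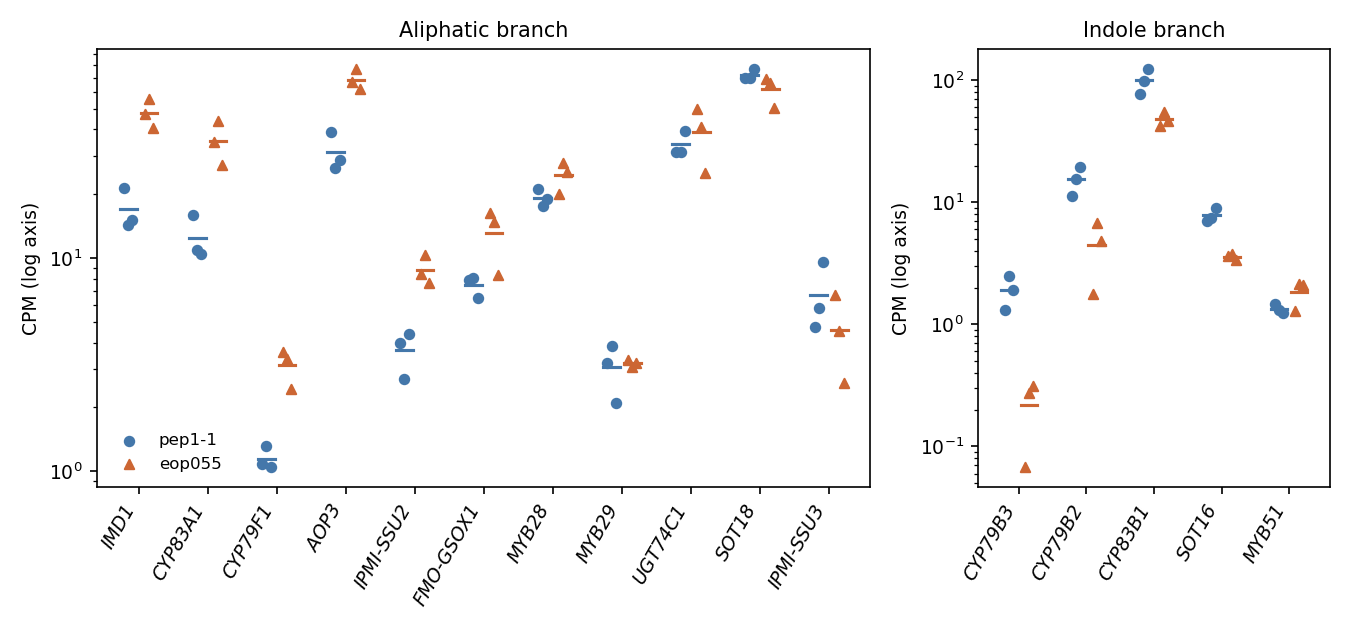
Named glucosinolate genes in 3-week apices. Points are CPM per library (log axes) with bars at the mean of 3, circles for pep1-1 and triangles for eop055; on the left IMD1, CYP83A1, CYP79F1 and AOP3 passed the test as higher in eop055, and on the right every gene but MYB51 passed as lower.

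Defence genes gave the largest rises among the genes with names and at least 5 CPM. The 3 named genes of the chitinase list, all named through the 3-week tables, rose in eop055 with a median log2 fold change of 2.34. Chitinases cut the chitin of fungal cell walls. AT4G01700, a chitinase family gene outside the list and chosen after its values were seen, rose less (log2 fold change 0.91, edgeR adjusted p = 0.00945). It was also called higher in 5-week apices (1.12) and leaves (0.48). Its 3-week call was lost without pep1-1 replicate 3 (edgeR adjusted p = 0.0559) or eop055 replicate 2 (0.0665). AT2G43590 (Aa_G162770h1) was at 3.46, 1.38 and 2.16 CPM in pep1-1 and 5.45, 22.2 and 11.7 CPM in eop055. The eop055 libraries varied widely around their mean of 13.1 ± 8.47 CPM (SD, n = 3), with replicate 1 lowest and replicate 2 highest, but none reached down to pep1-1 (log2 fold change 2.51 ± 0.43 SE, edgeR adjusted p = 0.00488). Without eop055 replicate 2 the log2 fold change was 1.88.

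AT2G43620 (Aa_G284440h1), a chitinase of the same family, was at 5.84, 2.83 and 4.32 CPM in pep1-1 and 7.56, 34 and 24.2 CPM in eop055 (log2 fold change 2.34 ± 0.44 SE, edgeR adjusted p = 0.00981). CHIC (Aa_G448060h1), a class V chitinase, was at 1.61, 1.11 and 1.3 CPM in pep1-1 and 2.93, 10.01 and 5.94 CPM in eop055 (log2 fold change 2.23 ± 0.45 SE, edgeR adjusted p = 0.00909). Both repeated the order of the eop055 libraries, with replicate 1 lowest. Without pep1-1 replicate 2 the adjusted p was 0.0604 for AT2G43620 and 0.066 for CHIC, without pep1-1 replicate 3 it was 0.054 and 0.0605, and for CHIC it was 0.0539 without eop055 replicate 2. In the fit of the 6 libraries alone none of the 3 listed chitinase genes passed, with an edgeR adjusted p of 0.147 for AT2G43590, 0.165 for AT2G43620 and 0.0741 for CHIC.

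Other genes among the largest rises had the same profile over the libraries. GSTF2 (Aa_G354920h1), a glutathione transferase of the phi class, was at 2.84, 1.93 and 2.53 CPM in pep1-1 and 4.02, 15.6 and 12.4 CPM in eop055 (log2 fold change 2.13 ± 0.43 SE, edgeR adjusted p = 0.0101). ATBBE7 (Aa_G415770h1), a berberine bridge enzyme-like oxidase, was at 2.15, 1.73 and 2.28 CPM in pep1-1 and 3.27, 12 and 11.7 CPM in eop055 (log2 fold change 2.12 ± 0.43 SE, edgeR adjusted p = 0.0103). In both, eop055 replicate 1 was close to the pep1-1 libraries and replicates 2 and 3 stood well above.

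ALPHA DOX2 (Aa_G203130h1), a fatty acid alpha-dioxygenase, was at 2.23, 2.07 and 1.73 CPM in pep1-1 and 3.61, 9.19 and 11.4 CPM in eop055 (log2 fold change 2.00 ± 0.33 SE, edgeR adjusted p = 0.00271). RLP46 (Aa_G185610h1), a receptor-like protein, was at 2.54, 1.8 and 1.85 CPM in pep1-1 and 4.02, 10.4 and 7.04 CPM in eop055 (log2 fold change 1.80 ± 0.37 SE, edgeR adjusted p = 0.0124). The calls of 3 of these genes were lost without pep1-1 replicate 2 (edgeR adjusted p = 0.0686 for GSTF2, 0.0656 for ATBBE7 and 0.072 for RLP46). Without pep1-1 replicate 3 those of GSTF2 (0.0561) and RLP46 (0.0724) were lost, and that of GSTF2 also without eop055 replicate 2 (0.0507). The fit of the 6 libraries alone did not call GSTF2 (edgeR adjusted p = 0.149), ATBBE7 (0.146) or ALPHA DOX2 (0.0854).

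The classical salicylic acid markers did not pass. PR2, a glucanase, was at 0.999, 0.345 and 0.555 CPM in pep1-1 and 2.25, 7.4 and 4.3 CPM in eop055 (log2 fold change 2.89 ± 1.01 SE, edgeR adjusted p = 0.208). PR1 rested on 3 counts in pep1-1 and 27 in eop055 (log2 fold change 3.05, edgeR adjusted p = 0.599). By edgeR 0 of 9 named salicylic acid or immune genes were called, against 2 by DESeq2 and 3 at an unadjusted p under 0.05. PR4, a chitin-binding protein outside the lists, was called higher but its groups overlapped (23.4, 13.3 and 18.2 CPM in pep1-1 and 23.1, 48.8 and 39.3 CPM in eop055, log2 fold change 1.02, edgeR adjusted p = 0.035), and the call was lost without pep1-1 replicate 2 (0.143), pep1-1 replicate 3 (0.123), eop055 replicate 2 (0.146) or eop055 replicate 3 (0.0979), and in the fits of the 6 libraries (0.235) and the 12 apex libraries (0.0711). WRKY30, a defence transcription factor, was also higher (log2 fold change 2.15, edgeR adjusted p = 0.0112, and 0.0789 without pep1-1 replicate 2 and 0.108 without eop055 replicate 2). These 2 were chosen after their values were seen. The 3 listed chitinase genes were higher in 5-week pep1-1 leaves than in apices by 3.05 to 5.12 on the log2 scale, and AT4G01700 by 3.48.

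**Figure D4:**
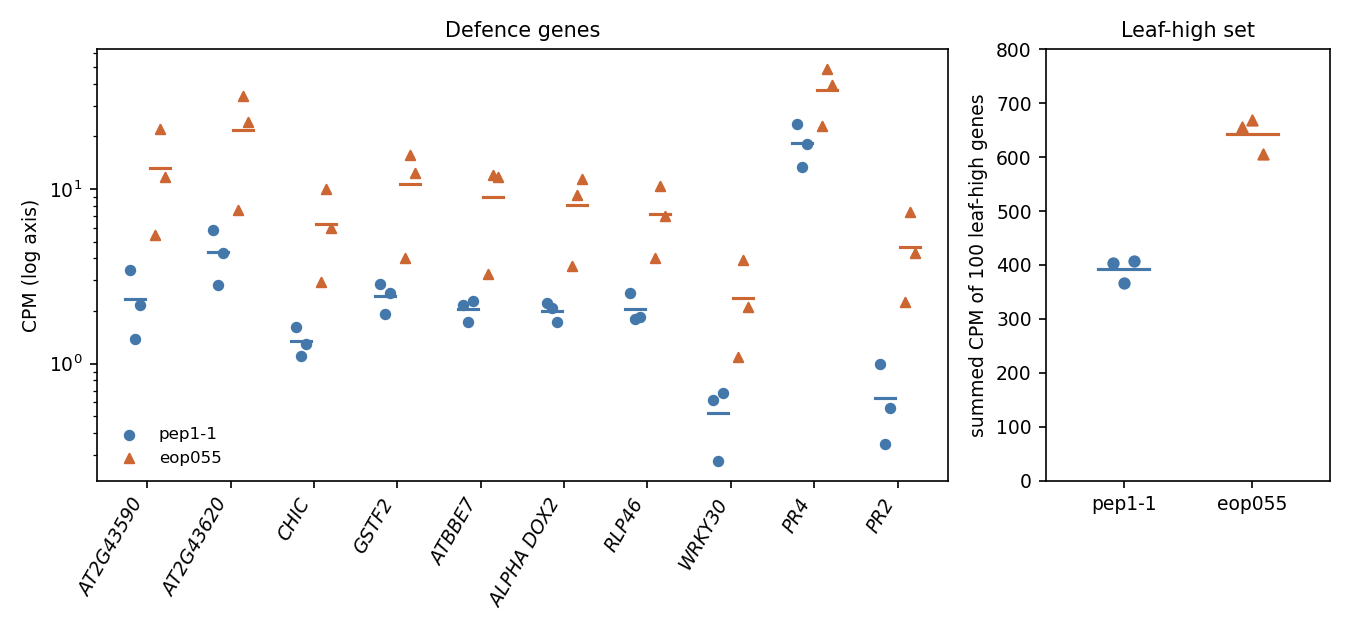
Left, CPM per library (log axis) of defence genes in 3-week apices, circles for pep1-1, triangles for eop055 and bars at the mean of 3, with eop055 replicate 1 (leftmost triangle) the lowest eop055 library for every gene shown. Right, the summed CPM of 100 leaf-enriched genes per library (linear axis from 0), between 367 and 408 in pep1-1 and between 605 and 669 in eop055, where replicate 3 is the lowest eop055 library.

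Of 9 named flowering genes 1 was called higher at this age and 0 lower (1 and 0 by DESeq2, 4 and 1 at an unadjusted p under 0.05), with a median log2 fold change of 0.16. The gene called was SPL5 (Aa_G1050h1), an age-pathway transcription factor that activates floral meristem genes. SPL5 was at 0.768, 0.967 and 0.987 CPM in pep1-1 and 3.27, 2.74 and 2.11 CPM in eop055, with all eop055 libraries above all pep1-1 libraries (log2 fold change 1.57 ± 0.37 SE, edgeR adjusted p = 0.0182). Its call was lost without any 1 of pep1-1 replicates 1 to 3 (edgeR adjusted p = 0.072, 0.0728 and 0.0716) or eop055 replicates 1 and 2 (0.086 and 0.071), and in the fit of the 12 apex libraries (0.0813). Its relative SPL4 was at 0.154, 0.138 and 0.493 CPM in pep1-1 and 0.545, 0.754 and 0.938 CPM in eop055 and was not called (log2 fold change 1.40, edgeR adjusted p = 0.18), and SPL9 showed a log2 fold change of 0.16 (edgeR adjusted p = 0.588).

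LFY, which sets floral meristem identity, was at 6.22, 5.53 and 4.19 CPM in pep1-1 and 3.06, 2.6 and 3.83 CPM in eop055 and was not called (log2 fold change -0.74 ± 0.27 SE, edgeR adjusted p = 0.159). AP1, a floral meristem gene that acts with LFY, had 1 count in each genotype over all 3 libraries, so a difference was not detectable at this depth. None of the 5 floral organ genes tested and neither of the floral repressors TEM1 (log2 fold change -0.04, edgeR adjusted p = 0.967) and TEM2 (log2 fold change -0.03, edgeR adjusted p = 0.99) was called by edgeR or DESeq2, and 0 had an unadjusted p under 0.05.

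Hormone lists gave few calls. JAZ proteins repress the jasmonate response and are themselves induced by it. Of 10 named jasmonate genes 2 were lower and 0 higher in eop055 (3 and 0 by DESeq2, 5 and 1 at an unadjusted p under 0.05), with a median log2 fold change of -0.82. JAZ9 (Aa_G68580h1) was at 96.6, 112 and 152 CPM in pep1-1 and 44.9, 60.1 and 59.8 CPM in eop055 (log2 fold change -1.13 ± 0.23 SE, edgeR adjusted p = 0.0167), and JAZ10 (Aa_G19470h1) at 23.8, 26.5 and 32.9 CPM in pep1-1 and 12.9, 16 and 15.9 CPM in eop055 (log2 fold change -0.90 ± 0.22 SE, edgeR adjusted p = 0.0309). In both genes pep1-1 replicate 3 was the highest library.

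The JAZ9 call was lost without pep1-1 replicate 3 (edgeR adjusted p = 0.0788), eop055 replicate 1 (0.0716) or eop055 replicate 2 (0.0546), and in the fit of the 6 libraries alone (0.0702). The JAZ10 call was lost without any library but pep1-1 replicate 1, with adjusted p between 0.078 and 0.141. MYC2, the transcription factor that JAZ proteins bind, was at 157, 193 and 281 CPM in pep1-1 and 80.7, 137 and 99.9 CPM in eop055 and was not called (log2 fold change -0.99 ± 0.34 SE, edgeR adjusted p = 0.168). JAZ6 (log2 fold change -1.35, edgeR adjusted p = 0.0833) and the synthesis gene OPR3 (log2 fold change -0.74, edgeR adjusted p = 0.157) were not called either.

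Of 4 named genes of the auxin list 1 was higher and 1 lower, against 7.68% and 2.82% of all named genes tested. PILS3 (Aa_G111050h1), an auxin carrier of the endoplasmic reticulum, was at 3.3, 3.32 and 3.52 CPM in pep1-1 and 6.13, 6.38 and 4.22 CPM in eop055 (log2 fold change 0.73 ± 0.17 SE, edgeR adjusted p = 0.0166). GH3.3 (Aa_G288640h1), which conjugates auxin to amino acids, was at 31.4, 34.7 and 29.6 CPM in pep1-1 and 24.6, 17.2 and 23 CPM in eop055 (log2 fold change -0.56 ± 0.14 SE, edgeR adjusted p = 0.0257). GH3.9 (Aa_G12820h1), of the same enzyme family and among the largest rises, was at 8.3, 4.08 and 7.34 CPM in pep1-1 and 15.2, 17.2 and 16 CPM in eop055 (log2 fold change 1.30 ± 0.20 SE, edgeR adjusted p = 0.00115). Leaving out eop055 replicate 2 gave an adjusted p of 0.123 for PILS3 and 0.204 for GH3.3, and PILS3 was also lost without eop055 replicate 1 (0.0825), GH3.3 without eop055 replicate 3 (0.0527). Both were lost without pep1-1 replicates 1, 2 or 3 (PILS3 0.0556, 0.0752 and 0.0567, GH3.3 0.0672, 0.147 and 0.054). The list does not hold every named auxin gene. Outside it ATDAO2 (log2 fold change 0.80, edgeR adjusted p = 0.0037), IAMT1 (0.78, 0.0457) and SAUR10 (1.75, 0.0257) were called higher. The IAMT1 and SAUR10 calls were lost in several fits that left out 1 library.

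No listed gene was called by edgeR among the 8 tested genes of ethylene signalling, the 8 of abscisic acid and cold response, the 4 of gibberellin, the 2 of cytokinin, the 2 of flavonoid synthesis or the 1 heat shock gene. DESeq2 called 1 of the ethylene genes and 0 of the others. An unadjusted p under 0.05 was found for 2 ethylene, 1 abscisic acid or cold, 1 gibberellin, 2 cytokinin, 1 flavonoid and 0 heat shock genes, and for 3236 of all 21275 genes tested. These lists leave out some named genes. Outside them the cytokinin genes ARR11 (log2 fold change 1.12, edgeR adjusted p = 0.0141) and KMD3 (0.79, 0.00142) were called higher. So was RD20, an abscisic acid response gene (0.65, 0.0116), while COR28 was lower, as given above. The ARR11 and RD20 calls were lost in several fits that left out 1 library. One of 3 named meristem genes was called: ZPR2 (Aa_G48790h1), a small leucine zipper protein that restrains class III homeodomain factors of the meristem, was at 8.99, 6.08 and 5.43 CPM in pep1-1 and 13, 12.2 and 11.2 CPM in eop055 (log2 fold change 0.84 ± 0.16 SE, edgeR adjusted p = 0.0037).

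Of 5 named sugar and dormancy genes 2 were lower and 0 higher (2 and 0 by DESeq2, 3 and 0 at an unadjusted p under 0.05), with a median of -0.92. DRM2 (Aa_G438760h1), a dormancy-associated protein, was at 12.3, 10.01 and 32.6 CPM in pep1-1 and 0.613, 3.56 and 5.08 CPM in eop055, with pep1-1 replicate 3 far above the other libraries (log2 fold change -2.60 ± 0.55 SE, edgeR adjusted p = 0.0199). Without that library its log2 fold change was -1.87 (edgeR adjusted p = 0.0682), and without eop055 replicate 2 the adjusted p was 0.0805. The fits of the 6 libraries (0.182) and the 12 apex libraries (0.0555) did not call it either. TPPF (Aa_G522440h1), a trehalose-6-phosphate phosphatase, was at 4.92, 5.39 and 9 CPM in pep1-1 and 2.11, 2.95 and 3.6 CPM in eop055 (log2 fold change -1.18 ± 0.24 SE, edgeR adjusted p = 0.00561), and its adjusted p was 0.081 without pep1-1 replicate 3. The sugar-repressed DIN10 was at 70.8, 76.3 and 98.8 CPM in pep1-1 and 21.8, 54 and 54.5 CPM in eop055 and was not called (log2 fold change -0.92, edgeR adjusted p = 0.221).

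NIA2 (Aa_G525030h1), a nitrate reductase, was the only one of 4 named iron, phosphate and nitrate genes called. It was at 111, 103 and 86.4 CPM in pep1-1 and 151, 139 and 130.4 CPM in eop055 (log2 fold change 0.49 ± 0.13 SE, edgeR adjusted p = 0.0443). Its call was lost without each single library except pep1-1 replicate 1, with adjusted p between 0.0641 and 0.191, and with RLE scaling (0.0648) or no filter on low counts (0.0592). TAG1 (Aa_G143440h1), which makes triacylglycerol, was lower in all 3 eop055 libraries and nearly constant within each genotype at 15.1, 15.3 and 14.7 CPM in pep1-1 and 6.26, 6.17 and 7.19 CPM in eop055 (log2 fold change -1.20 ± 0.20 SE, edgeR adjusted p = 0.000982).

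Of 70 tested genes described as transporters 11 were higher and 2 lower, and 13 of the 70 were named through the 3-week tables. All named genes tested gave 7.68% higher and 2.82% lower. Of the 11 higher genes, 2 were named only through the 5-week tables, and so were the 2 lower ones. All genes named only in that way gave 3.04% higher and 1.20% lower. The 11 cannot show an excess of transporters, since most were listed in the 3-week tables, made from the same libraries. SIAR1 (Aa_G82580h1), an amino acid exporter of the UMAMIT family, was at 8.76, 6.42 and 6.85 CPM in pep1-1 and 24.1, 27.4 and 18.8 CPM in eop055, and its highest pep1-1 library was well below its lowest eop055 library (log2 fold change 1.68 ± 0.15 SE, edgeR adjusted p = 4.83e-07). GDU1 (Aa_G74630h1), a membrane protein that stimulates amino acid export, was at 8.15, 5.46 and 4.38 CPM in pep1-1 and 14.7, 11.9 and 10.9 CPM in eop055 (log2 fold change 1.08 ± 0.21 SE, edgeR adjusted p = 0.00414). UMAMIT31 (Aa_G624600h1) had 0 counts in the 3 pep1-1 libraries and 26 in eop055, which is at least 9.01-fold higher when pep1-1 is set at a floor of 3 counts over the group. GDU1 and UMAMIT31 were chosen after their values were seen.

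The counts in this paragraph stand beside 7.68% higher and 2.82% lower among all named genes tested. They describe the genes that have names and are not tests of an excess. Each group was found by words in gene names and descriptions and misses members that these do not identify. Of 11 tested cytochrome P450 genes found so 3 were higher and 2 lower. Counting those the search missed, CYP79B2, CYP79B3 and CYP83B1 were called lower. CYP71B5, CYP71B11, CYP71B23, CYP79F1, CYP83A1 and CYP722A1 were called higher. Of 81 receptor kinases and receptor-like proteins 7 were higher and 1 lower. Of 153 transcription factors found so 8 were higher and 0 lower (9 and 2 by DESeq2, 22 and 11 at an unadjusted p under 0.05). LUX and BOA, described above and called lower, were not among the 153. Some transcription factors called higher were not among them either. Named through the 3-week tables were 3 of the P450 genes, 5 of the receptor genes and 9 of the transcription factors. CYP71B23 (Aa_G636060h1), a P450, was at 3.46, 3.73 and 4.13 CPM in pep1-1 and 6.47, 12.7 and 9.93 CPM in eop055 (log2 fold change 1.35 ± 0.18 SE, edgeR adjusted p = 0.000157). Of 32 cell wall genes 2 were higher, of 9 UDP-glycosyltransferases 2, and of 18 disease resistance proteins 2, with 0 lower in each by edgeR, DESeq2 or an unadjusted p under 0.05. Members of these 3 groups named through the 3-week tables numbered 4, 1 and 0. No gene was called by edgeR or DESeq2 among 10 lipid transfer genes or the 2 peroxidases and glutathione transferases found by description, with 1 in each at an unadjusted p under 0.05. BGLU47 (Aa_G298520h1), a beta-glucosidase, was at 5.92, 4.9 and 2.22 CPM in pep1-1 and 16.4, 9.05 and 10.6 CPM in eop055 (log2 fold change 1.49, edgeR adjusted p = 0.031). Its call was lost without pep1-1 replicate 2 (0.0918), pep1-1 replicate 3 (0.109), eop055 replicate 1 (0.123) or eop055 replicate 3 (0.0564), in the fit of the 6 libraries alone (0.126) and without the filter on low counts (0.0503).

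AT4G36880 (log2 fold change 1.40, edgeR adjusted p = 0.00816) and AT5G65660 (log2 fold change 1.27, edgeR adjusted p = 2.7e-05) were also among the 15 largest rises. AT4G11911 was among the 15 largest falls (log2 fold change -1.25, edgeR adjusted p = 0.0309), but its adjusted p was 0.0926 without pep1-1 replicate 2, 0.164 without pep1-1 replicate 3, 0.129 without eop055 replicate 1 and 0.112 without eop055 replicate 2.

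The 5-week libraries share no sample with the 3-week comparison. In 5-week apices 376 of the 783 genes (48.0%, exact Clopper-Pearson 95% interval 44.5% to 51.6%, counting error only) had the same direction of the genotype effect, near the 46.1% of all genes tested. By edgeR 142 of them (18.1%) were called in the same direction and 156 (19.9%) in the opposite one, against 6.30% and 8.16% of all genes tested. The background of calls is larger at 5 weeks, at 14.5% of genes in apices and 26.6% in leaves. In leaves 555 (70.9%) had the same direction, against 56.7% of all genes, and 270 (34.5%) were called in the same direction and 58 (7.41%) in the opposite one. For the 190 genes with at least a 2-fold difference at 3 weeks, the same direction was found for 61.1% in 5-week apices and 77.4% in leaves.

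**Figure D5:**
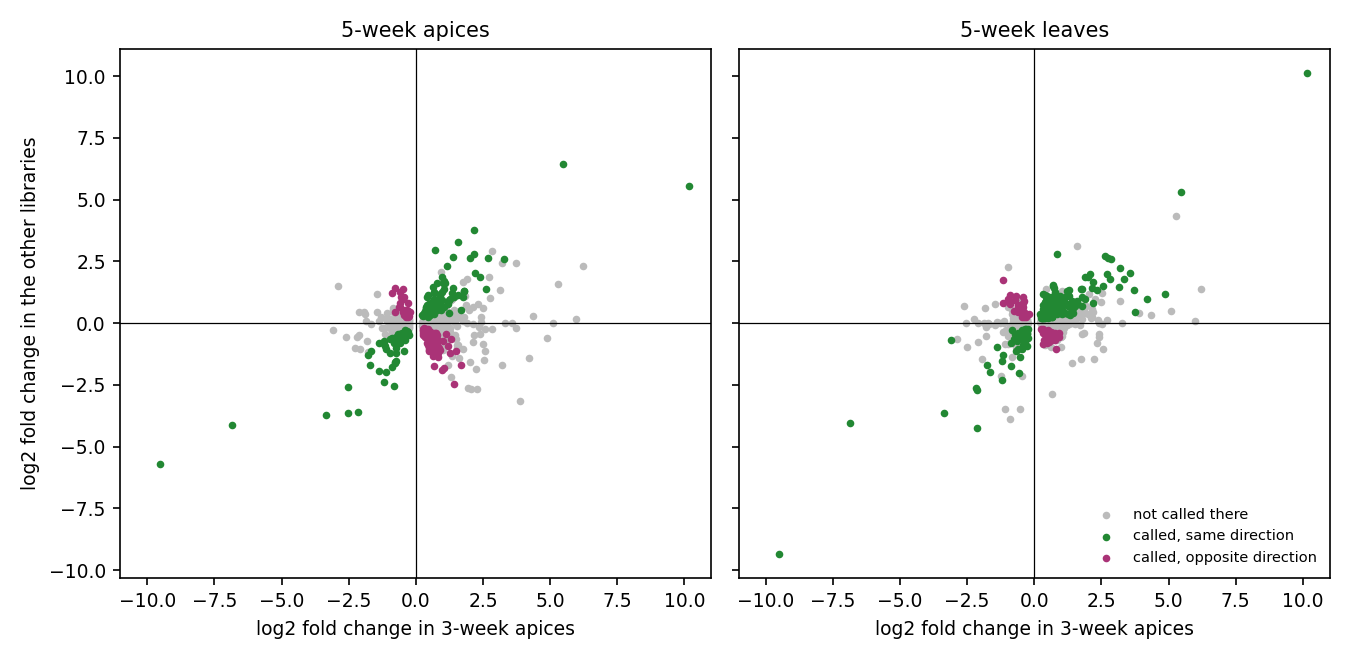
Genotype effect of the 783 genes called in 3-week apices (x axis, log2 fold change) against the same effect in 5-week apices (left) and 5-week leaves (right). Green points were called there in the same direction (142 and 270 genes), purple points in the opposite direction (156 and 58 genes), and grey points were not called there.

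All 3 comparisons called 55 genes in the same direction, of which 38 rose and 17 fell and 18 have names. AT5G28885 (Aa_G795460h1) was at 7.3, 7.94 and 6.72 CPM in pep1-1 and had 0 counts in the 3 eop055 libraries against 319 in pep1-1, which is at least 102-fold lower with the floor of 3 counts over the group. It was also lower in 5-week apices (edgeR adjusted p = 1.32e-07) and leaves (1.22e-06). AT4G14096 (Aa_G430920h1, chosen after its values were seen) was at 2.77, 3.94 and 3.7 CPM in pep1-1 and 0.272, 0.411 and 0.313 CPM in eop055 (log2 fold change -3.35 ± 0.42 SE, edgeR adjusted p = 4.48e-05), with log2 fold changes of -3.71 in 5-week apices and -3.64 in leaves.

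PXC2 (Aa_G271830h1), a leucine-rich repeat receptor-like kinase, had the smallest p of the named genes. It was at 121, 115 and 108 CPM in pep1-1 and 51.7, 47.2 and 52.2 CPM in eop055, with tight replicates in both genotypes (log2 fold change -1.18 ± 0.07 SE, edgeR adjusted p = 1e-10), and fell by 0.72 on the log2 scale in 5-week apices and by 2.30 in leaves. AT2G13840 (Aa_G105210h1) was at 38.1, 33.9 and 37.6 CPM in pep1-1 and 11.1, 11.9 and 11.7 CPM in eop055 (log2 fold change -1.66 ± 0.12 SE, edgeR adjusted p = 1.16e-08), and its log2 fold change was -1.14 in 5-week apices and -1.96 in leaves. LHY, CCA1 and PRR5 were the clock genes among the 55.

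Genes with no Arabidopsis name made up 638 of the 783. The largest rise by fold belonged to Aa_G514020h1, which had 0 counts in pep1-1 and 8.92, 10.01 and 15.5 CPM in eop055, at least 165-fold higher with the floor of 3 counts over the group, and which was also higher in 5-week apices and leaves. Aa_G284400h1 rose from 8.91, 4.83 and 7.22 CPM to 12.6, 58.7 and 40.2 CPM (log2 fold change 2.41 ± 0.45 SE, edgeR adjusted p = 0.00978). It showed the low eop055 replicate 1 of the chitinase genes, and its adjusted p was 0.0607 without pep1-1 replicate 2, 0.0517 without pep1-1 replicate 3 and 0.155 in the fit of the 6 libraries alone. Aa_G639700h2 fell from 50 counts in pep1-1 to 0, at least 16.0-fold lower, and Aa_G498720h1 fell from 6.69, 7.32 and 7.71 CPM to 2.04, 2.19 and 2.11 CPM (log2 fold change -1.77 ± 0.18 SE, edgeR adjusted p = 1.94e-06). These 4 genes were chosen after their values were seen.

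The 156 genes called in opposite directions in 3-week and 5-week apices comprised 123 that were higher and 33 that were lower in eop055 at 3 weeks. The difference between the 2 effects was called by edgeR for 423 of the 783 genes, which were chosen for their effect at 3 weeks, and for 10.6% of all genes tested. IMD1 had a log2 fold change of 1.51 at 3 weeks and -1.13 at 5 weeks, NIA2 of 0.49 and -1.13, ZPR2 of 0.84 and -1.36, and GH3.3 of -0.56 and 1.05. GT2, a trihelix transcription factor chosen after its values were seen, was at 13.8, 13.1 and 15.9 CPM in pep1-1 and 23.5, 28.4 and 24.6 CPM in eop055 at 3 weeks (log2 fold change 0.83 ± 0.12 SE, edgeR adjusted p = 0.000194), and its log2 fold change was -1.21 at 5 weeks (edgeR adjusted p = 6.05e-07).

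The level of single libraries was not evenly spread through the calls. Among the 548 genes higher in eop055, eop055 replicate 3 was the lowest eop055 library for 251 (45.8%), against 32.6% of all genes tested, and pep1-1 replicate 1 the highest pep1-1 library for 281 (51.3%), against 33.0%. Among the 235 genes lower in eop055, eop055 replicate 3 was the highest eop055 library for 111 (47.2%), against 31.0% of all genes tested. For 139 of them (59.1%) pep1-1 replicate 1 was the lowest pep1-1 library, against 33.7%.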

How the data were processed

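Poly(A) RNA was sequenced as single reads of 100 bases from directional libraries, per the labels' protocols. The authors deposited raw read counts per gene for 18 libraries, and list STAR, HTSeq (version 0.5.4p1) and both DESeq and DESeq2 in the submitters' processing notes. No source used here gives the genome build or says whether counting used strand, so overlapping antisense genes cannot be told apart. The 5 summary entries were left out of library sizes (reads in no feature were 10.6% to 11.8% and ambiguous reads 3.33% to 3.60% of all counts in the 3-week apices). The authors' deposited tables of changed genes also hold mean normalized signal per group, linear fold ratios, log2 fold changes and adjusted p-values, which were not used. Their first and name columns served as a dictionary that gave 1399 count rows an Arabidopsis locus, 1381 of them tested. Descriptions of 95 named genes were not used for lists found by description, and 7 of the 783 calls have an ID that several count rows share and carry no name.

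Counts were fitted with edgeR 4.0.16 (R 4.3.3, limma 3.58.1) over all 18 libraries as 6 group means, after filterByExpr and TMM scaling, with the robust quasi-likelihood F test and Benjamini-Hochberg adjustment over 21275 genes. SE is the log2 fold change divided by the square root of F. CPM are deposited counts per 1000000 reads of TMM-scaled library size. The filter was met over 18 libraries, so a gene may pass through another group. The biological coefficient of variation was 9.65%. Every pair of replicates differed beyond sampling noise (chi-square per gene 1.90 to 4.11). The named genes are the 15 largest rises and 15 largest falls with a name, at least 5 CPM in the higher genotype and no overlap, all called members of the clock, glucosinolate, sulfur, flowering, floral repressor, chitinase and jasmonate lists, plus at most 4 called genes per remaining list, 45 in all. The comparison, its members and the lists were chosen with earlier results of these data known. Alternatives were RLE and upper quartile scaling, 2 filters, DESeq2 1.42.0, smaller fits, a replicate block, stricter thresholds and leaving out each library. The procedure was tested on simulated counts.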

Additional observations from a re-analysis of the deposited data

Results flagged for a closer look

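For 25 of the 45 named genes the genotype effect differed between 3-week and 5-week apices in the edgeR test of the difference itself, at an adjusted p under 0.05, and each value below is the log2 effect at 3 weeks minus that at 5 weeks. These genes were chosen among those called at 3 weeks, and such a difference was also found for 423 of all 783 genes called, a like share, against 10.6% of all genes tested. The cause was not tested.

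Among clock genes the difference was -4.38 for JMJD5, -2.57 for FKF1, -1.14 for LUX and 0.83 for LHY, and it was -2.40 for the CCT-motif gene AT1G07050. In JMJD5 the effect was -2.89 at 3 weeks and 1.49 at 5 weeks, where it was not called (edgeR adjusted p = 0.0543). LHY was higher in eop055 at both ages, by 1.25 and 0.42.

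All 4 aliphatic glucosinolate genes called at 3 weeks were in the set. The difference was 2.64 for IMD1, 2.54 for CYP83A1, 1.95 for CYP79F1 and 1.51 for AOP3. Of the indole genes it was -1.48 for CYP83B1.

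Among the largest rises the difference was 3.57 for ALPHA DOX2, 3.35 for AT2G43590, 1.79 for GH3.9, 1.16 for AT5G65660, 1.15 for CYP71B23 and 1.14 for SIAR1. SIAR1 was higher in eop055 at both ages, by 1.68 and 0.54.

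Among the falls the difference was -0.52 for AT2G13840, -0.46 for PXC2 and -0.99 for TAG1, and TPPF, which was lower at both ages, had a positive difference of 1.20. For single members of the other lists it was -1.71 for SPL5, -2.23 for PILS3, -1.61 for GH3.3, 2.20 for ZPR2 and 1.62 for NIA2. SPL5 and PILS3 were higher in eop055 at both ages and more so at 5 weeks, by 3.28 and 2.96.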

How the results depend on the processing

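None of the 45 genes named by rule changed the direction of its 3-week effect under the 14 refits run, and 21 of them passed in every refit that tested them. Of 81 list members that were not called, 24 had the other sign in at least 1 refit, among them, with the range of their log2 fold changes, MYB29 (-0.15 to 0.29), TEM1 (-0.23 to 0.08), TEM2 (-0.20 to 0.16) and AP1 (-1.70 to 1.74). With the 6 libraries of 3-week apices alone, 1712 genes were called (997 higher, 715 lower, 682 of the 783 among them), but 13 of the 45 lost their call, all 3 chitinase genes included, and 2 indole genes were lower. With the 12 apex libraries 389 genes were lower, 3 clock genes were called lower and 5 of the 45 lost their call. A 2-fold minimum left 190 calls (149 and 41) and an adjusted p under 0.01 left 323 (245 and 78). DESeq2 called 996 genes, 766 of them among the 783. RLE scaling called 760, upper quartile scaling 770, no filter 740, and 50 counts in 3 libraries 774. Leaving out 1 library gave 359 to 592 calls, 252 to 418 higher and 88 to 174 lower, and 14 to 26 calls over all lists against 29. It left 3 to 5 clock genes and 2 to 3 indole genes lower, 3 to 5 aliphatic genes higher, and between 45.5% and 55.7% of calls with the same direction at 5 weeks. Same-numbered libraries correlated at 0.02, -0.18 and 0.03 in their deviations from the group means, and differently numbered ones at -0.18 to 0.16. With 3 libraries per group this cannot show whether same-numbered samples were handled together, which the labels do not say. With the replicate block 676 genes were called, 615 of them among the 783 and all but 7 of the 45, and 51.6% had the same direction at 5 weeks against 48.0%. The 7 were the 3 chitinase genes, RLP46, CYP83A1, SOT16 and SPL5. At this depth a difference in AP1 was not detectable, and 39 calls had a mean level under 1 CPM.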
